A study of Drosophila melanogaster with 2 samples.

Results

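Intergenic peaks of CG16779-eGFP were 246 of the 2516 peaks on the main chromosome arms kept at an irreproducible discovery rate (IDR) of at most 0.01 in 2 biological replicates. A low IDR means that a peak ranked high, and consistently so, in both peak sets compared. The peaks kept are called here the conservative list. A peak was counted as intergenic when its summit lay more than 500 bp from every annotated transcription start site (TSS) and outside every annotated gene, coding or not. The rule used positions only, and no signal. Among the other peaks of the conservative list, 661 had their summit in an intron, 218 in an exon and 1391 within 500 bp of a TSS, which are called promoter peaks.

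The material was whole Drosophila melanogaster embryos aged 8 to 24 hours of a CG16779-GFP strain, in which an insertion encodes the protein of CG16779 fused to eGFP. Bound DNA was recovered with an antibody against GFP from chromatin sonicated to 200 to 800 bp. Both replicates belong to this single group, and no control library was analysed here, so no contrast between conditions exists and no test between conditions was run. A whole embryo holds every embryonic tissue, so a peak cannot be placed in a cell type. Signal is the value given to a peak by the authors' peak caller, on a scale that the sources used here do not state, and the read depth behind it is unknown. Means of signal are given ± SD of the replicates (n = 2). Peaks overlap or share neighbours and are not replicates of a condition, so counts over peaks are descriptions. The 95% intervals given with shares are exact binomial (Clopper-Pearson) ones and reflect counting error alone. Positions are 1-based on dm6.

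In flies, DNA between genes holds enhancers, which bind transcription factors and act on promoters at a distance, and boundary elements, which separate neighbouring regulatory domains. CTCF is one of the fly insulator proteins and binds DNA through its zinc fingers. Polycomb group proteins, which keep developmental genes silent, are recruited through other intergenic elements called Polycomb response elements. A ChIP peak records that the tagged protein, or something it was crosslinked to, was recovered with that stretch of DNA, and does not show which gene, if any, is regulated from it.

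The bases at the summits of the strongest intergenic peaks were read first, since they are the DNA on which the strongest signal was centred. The 5 sequences that follow are 101 bp windows centred on the summit, on the plus strand of the RefSeq release 6 genome (dm6). They belong to the strongest peak, to peaks beside foxo, chinmo and abd-A, and to one beside Crtc. Capitals mark the single match to a searched motif, in the abd-A window: CAGGTAG, the TAGteam motif of early embryonic genes, read on the minus strand.
tara peak, chr3R:16222434-16222534: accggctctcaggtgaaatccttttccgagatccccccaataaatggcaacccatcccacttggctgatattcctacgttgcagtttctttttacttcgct
foxo peak, chr3R:14053571-14053671: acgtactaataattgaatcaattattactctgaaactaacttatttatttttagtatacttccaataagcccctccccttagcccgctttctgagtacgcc
Crtc peak, chr3L:17658524-17658624: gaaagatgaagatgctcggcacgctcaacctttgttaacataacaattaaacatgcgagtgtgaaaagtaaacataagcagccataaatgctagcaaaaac
chinmo peak, chr2L:1632772-1632872: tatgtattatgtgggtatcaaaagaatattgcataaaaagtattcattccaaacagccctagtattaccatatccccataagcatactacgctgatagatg
abd-A peak, chr3R:16798834-16798934: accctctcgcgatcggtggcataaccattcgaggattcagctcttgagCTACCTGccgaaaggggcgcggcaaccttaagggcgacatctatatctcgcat

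A run of letters of the kind found in CTCF sites, GNTGGCGC on either strand, lay within 50 bp of the summit in 17 of 246 intergenic peaks (6.91%), against 1.97% of intron peaks, 5.96% of exon peaks, 2.23% of promoter peaks and 2.94% of all 2516 peaks. Over 378843 consecutive windows of the same length that met the same positional rule, 0.794% held the letters. These letters were chosen after the sequences were seen, so the shares are a description with no test, and a match is not a binding site. The peaks with a match had a median signal of 48.4, with 31.4 the lowest and 197 the highest. Of the 17, 6 lay within 100 bp of a summit called in each replicate alone and 7 were called in neither. Over all 246 intergenic peaks these calls were found for 59 (24.0%) and 128 (52.0%). Over all 2516 peaks the shares were 30.9% and 45.7%.

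The windows of 5 of these 6 peaks are shown so that the matches, in capitals, can be compared. They are given from the strongest to the weakest peak.
C15-sp3 peak, chr3R:21520309-21520409: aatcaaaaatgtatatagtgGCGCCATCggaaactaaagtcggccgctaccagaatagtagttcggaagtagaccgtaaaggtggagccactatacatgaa
jp-brwl peak, chr2L:9567472-9567572: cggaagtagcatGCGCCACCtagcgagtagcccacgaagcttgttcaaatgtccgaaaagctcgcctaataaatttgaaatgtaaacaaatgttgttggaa
soti-cv-c peak, chr3R:14391376-14391476: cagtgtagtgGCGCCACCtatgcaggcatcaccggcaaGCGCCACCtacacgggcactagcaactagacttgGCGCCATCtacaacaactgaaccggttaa
CG31960-bark peak, chr2L:3786392-3786492: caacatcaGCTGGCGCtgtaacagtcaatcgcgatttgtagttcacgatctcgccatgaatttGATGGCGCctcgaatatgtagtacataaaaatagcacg
Fancm-C15 peak, chr3R:21487924-21488024: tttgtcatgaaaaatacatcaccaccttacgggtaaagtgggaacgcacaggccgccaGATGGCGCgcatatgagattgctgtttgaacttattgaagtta
The window between soti and cv-c held the letters 3 times. Peaks on either side of C15, a homeodomain gene, each held them.

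The other motifs searched are given beside the same windows. TATCGATA, the DNA replication-related element of many housekeeping promoters, was in 0 of 246 intergenic windows. It was in 2.73% of promoter peaks, 1.59% of all peaks and 0.221% of rule-meeting windows. The count of 0 was taken to allow up to 3 counts (1.22%), an approximate limit and not one of the exact intervals. TATAAA was in 12.2% of intergenic peaks, against 12.4% of promoter peaks, 12.2% of all peaks and 12.5% of such windows. TAATTA, the core of many homeodomain sites, was in 6.1% of intergenic peaks, against 5.17% of all peaks and 7.34% of such windows. GCCATNTT, which holds the core bound by the Polycomb recruiter Pho, was in 3.25% of intergenic peaks, against 1.95% of all peaks and 2.21% of such windows. GAGAGAG, bound by GAGA factor, was in 1.22% of intergenic peaks, against 2.8% of promoter peaks, 2.42% of all peaks and 1.11% of such windows. GATAAG was in 4.47% of intergenic peaks, against 4.81% of all peaks and 4.04% of such windows. The letters GGCANCG were in 4.47%, against 5.68% and 3.63%. AAAAAAAA was in 2.85%, against 4.29% of all peaks and 5.37% of such windows, and CACACACA in 2.03%, against 2.86% and 1.95%. CACGTG was in 2 intergenic peaks, as was CAGGTAG, and promoter motif 1 in 1. Matches were counted on both strands and can overlap between motifs.

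Intergenic peaks lay closer to TSSs than intergenic DNA as a whole. The rule-meeting bases came to 39.0 Mb, 28.3% of the arms, and held 9.78% of the peaks (8.64 to 11.0%). This was 6.31 peaks per Mb, against 23.0 per Mb elsewhere on the arms. The median distance of an intergenic summit to the nearest TSS was 2228 bp, against 6390 bp over all rule-meeting bases. Those bases were not limited to DNA on which reads can be placed uniquely. They include transposable elements, bases of unknown letter and the Y (6.44% of the bases, with 1 peak). How far this moves the background distances was not tested. The bin at 500 to 1000 bp from a TSS held 23.2% of intergenic peaks (57) and 7.4% of the bases. At 1 to 2 kb there were 55 peaks (22.4%) on 12% of the bases. At 2 to 5 kb there were 72 peaks (29.3%) on 23.6% of the bases. At 5 to 10 kb there were 37 peaks (15%) on 18.9% of the bases. Beyond 10 kb there were 25 peaks (10.2%) on 38% of the bases.

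**Figure D1:**
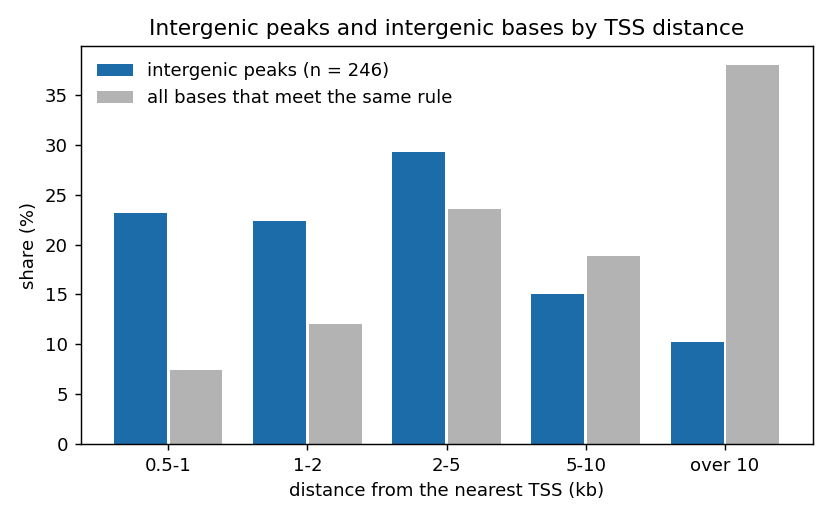
Share (%) of the 246 intergenic peaks (blue) and of all bases that meet the same rule (grey) by distance to the nearest TSS in kb. The peaks exceed the bases in the 3 bins up to 5 kb, and beyond 10 kb the peaks make up 10.2% against 38% of the bases.

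The median signal changed little with distance, while the share of strong peaks was lower beyond 2 kb. The median mean signal was 41.3 at 500 to 1000 bp, 40.0 at 1 to 2 kb, 39.8 at 2 to 5 kb, 39.8 at 5 to 10 kb and 39.2 beyond 10 kb. All peaks passed the same IDR filter, and the lowest mean signal of each bin was 31.4 to 31.7. The medians lie near that floor and show little of the strong peaks. The 629 strongest peaks of the list included 22.8% of the peaks at 500 to 1000 bp and 23.6% at 1 to 2 kb. They included 16.7% at 2 to 5 kb, 16.2% at 5 to 10 kb and 3 of 25 beyond 10 kb. These counts are small, and the decline was not tested. Across the 246 peaks, which share both libraries, Spearman's rank correlation of signal and distance was -0.07. The peaks next to the threshold are given as a description. The nearest outside lay 508 bp from the TSS of Gyc88E (38.8 ± 8.28), 509 bp from that of CG3348 (42.4 ± 4.05) and 513 bp from that of SsRbeta (48.6 ± 12.7). The nearest excluded lay 500 bp from CG17896 (207 ± 19.5), 497 bp from CG32032 (36.9 ± 5.21) and 493 bp from lncRNA:CR45284 (45.6 ± 8.37).

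Divergent gaps held a larger share of intergenic peaks than of intergenic bases. Between the nearest protein-coding genes on each side, 95 intergenic peaks (38.6%) lay in divergent gaps, where both genes are transcribed away from the peak, which held 22.3% of rule-meeting bases. Of the 95, 9 lay in the gap between RFeSP and chinmo and 7 in that between NijA and CG43245. The gaps upstream of tara and of foxo held 4 each. Tandem gaps held 104 peaks (42.3%) and 51.6% of the bases, and convergent gaps, between gene ends, 47 peaks (19.1%) and 21.3% of the bases. Agreement of the replicates was taken within each gap type, which is a measure apart from the shares above. The share called in each replicate alone was 17.9% in divergent gaps (10.8 to 27.1%), 25% in tandem gaps (17 to 34.4%) and 34.0% in convergent gaps (20.9 to 49.3%), with intervals that overlap. The summit lay upstream of the nearest TSS in 163 peaks (66.3%), against 57.9% of rule-meeting bases.

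The nearest TSS belonged to a protein-coding gene for 173 peaks (70.3%), against 64.9% of rule-meeting bases, and to a noncoding RNA gene for 67 peaks. Transfer RNA genes were nearest for 4 peaks, and a pseudogene and a snoRNA gene for 1 each. Both direct neighbours were protein-coding for 133 peaks, while 93 had 1 noncoding neighbour and 20 had 2. The gap between flanking protein-coding genes had a median of 12047.5 bp and ranged over 377 to 932525 bp. It was 10 kb or less for 105 peaks and over 50 kb for 12.

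Arm 3L held the most intergenic peaks, 74 (30.1%), with 23.3% of rule-meeting bases. Arm 2L had 51 (20.7% of peaks, 17.2% of bases), 3R had 56 (22.8%, 19.7%), 2R had 42 (17.1%, 19.1%) and the fourth chromosome 3. The X had 19 (7.72% of peaks on 13.6% of the bases) and the Y a single peak (0.407% on 6.44%). Of all 345 peaks of the list on the X, 5.51% were intergenic, against 8.03 to 13.5% on arms 2L, 2R, 3L and 3R. The sex of the embryos was not recorded. Whether fewer copies of X and Y DNA in mixed embryos had a part in these counts was not tested. Annotated transposable elements held 2 of the summits, the Y peak among them.

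The signal of intergenic peaks was slightly below that of intron and promoter peaks and above that of exon peaks, in each replicate. Their median was 39.5 in replicate 1 and 41.3 in replicate 2. For intron peaks it was 41.5 in replicate 1 and 44.1 in replicate 2, for exon peaks 35.5 in both, and for promoter peaks 46.9 in replicate 1 and 45.9 in replicate 2. The gaps between intergenic and intron medians were about the size of the gap between replicates (SD 1.3 for intergenic peaks), and the distributions overlapped over most of their range. Of the 629 strongest peaks of the list, 47 were intergenic, which was 19.1% of the intergenic peaks, against 29.3% of promoter peaks.

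Calls in the replicates' own lists are the measure of agreement that the rule did not use. A summit called within 100 bp in the own thresholded list of each replicate was found for 59 of 246 (24.0%, 18.8 to 29.8%), against 30.9% of all 2516 peaks. The share was 29.3% for intron peaks (25.9 to 33.0%), 8.26% for exon peaks (4.97 to 12.7%) and 36.4% for promoter peaks (33.8 to 39.0%). For 59 intergenic peaks only one replicate called a summit, and for 128 (52.0%) neither did, against 45.7% of all peaks. Replicate 1 called 85 (34.6%), against 41.4% of all peaks, and replicate 2 called 92 (37.4%), against 43.7%. Intron peaks over 2 kb from a TSS were nearer to the intergenic peaks than introns as a whole, with 21.5% called in each replicate alone (17.2 to 26.3%), 51.3% called in neither and 19.1% among the 629 strongest peaks.

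**Figure D2:**
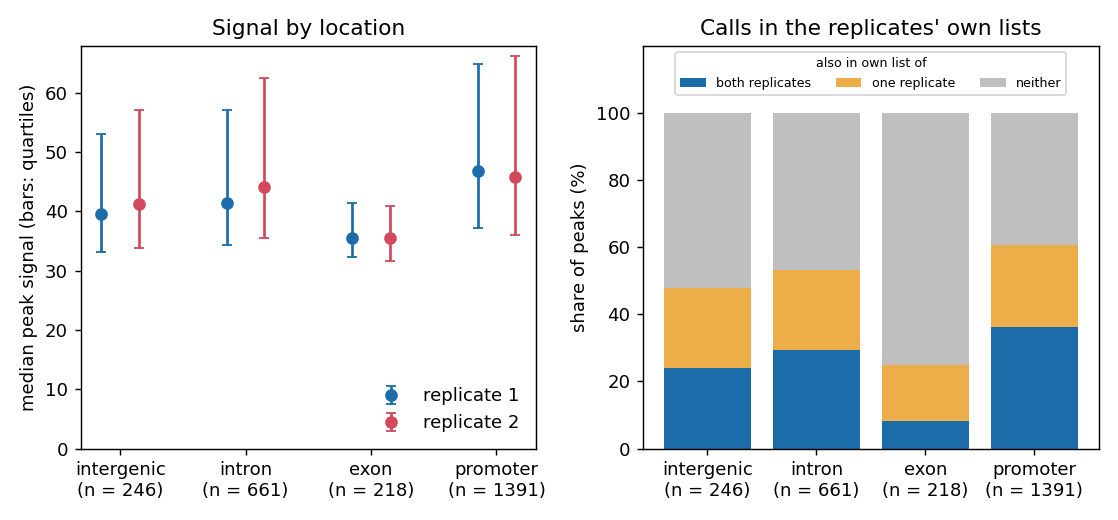
Left, median peak signal with quartiles for replicate 1 and replicate 2 by location of the summit; right, share (%) of peaks whose summit is within 100 bp of one in the own lists of both, one or neither replicate. Intergenic peaks have medians of 39.5 and 41.3, and 24.0% are in both lists, between exon and intron peaks.

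The peaks called in each replicate alone were the strong ones. Their median signal was 71.1 in replicate 1 and 81.2 in replicate 2, against 34.8 and 35.0 in the 128 called in neither. The own lists are thresholded on an IDR too, so a difference in signal between these sets is given as a description. The 59 had less GC in their 101 bp windows, with a median of 37.6%, against 48.5% in the 128. The same held at introns (33.2% against 44.6%), exons (42.1% against 58.4%) and promoters (37.6% against 49.5%). Over all intergenic peaks the median GC was 43.6%, against 44.6% over all peaks and 40.6% over rule-meeting windows. Spearman's rank correlation of signal and GC over the 246 peaks was -0.35. GC moved with the calls here, and its part in them was not tested.

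Rank agreement of the replicates was moderate over intergenic peaks. Spearman's rank correlation of the 2 signals was 0.46 over the 246 peaks, against 0.56 for intron peaks (0.43 over 2 kb from a TSS), 0.05 for exon and 0.65 for promoter peaks, and 0.59 over all. These correlations were computed within a list that the same replicates had selected. The median log2 ratio of replicate 2 over replicate 1 was 0.05 (SD over peaks 0.42), replicate 2 was the higher in 142 peaks, and the signals differed by over 1.5 times in 45. The largest ratios were 1.03 beside chinmo (35.3 in replicate 1 and 72.3 in replicate 2, a value shared with a neighbouring peak), 1.01 between osp and CG15282 (30.3 and 60.8) and 0.99 beside jing, a zinc finger gene (26.8 and 53.2). The smallest were -0.99 beside E(spl)malpha-BFM in the Notch-responsive E(spl) complex (53.1 and 26.7), -0.90 beside aop, which encodes an ETS repressor (73.3 and 39.2), and -0.87 between CG6168 and CG6163 (52.0 and 28.4).

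**Figure D3:**
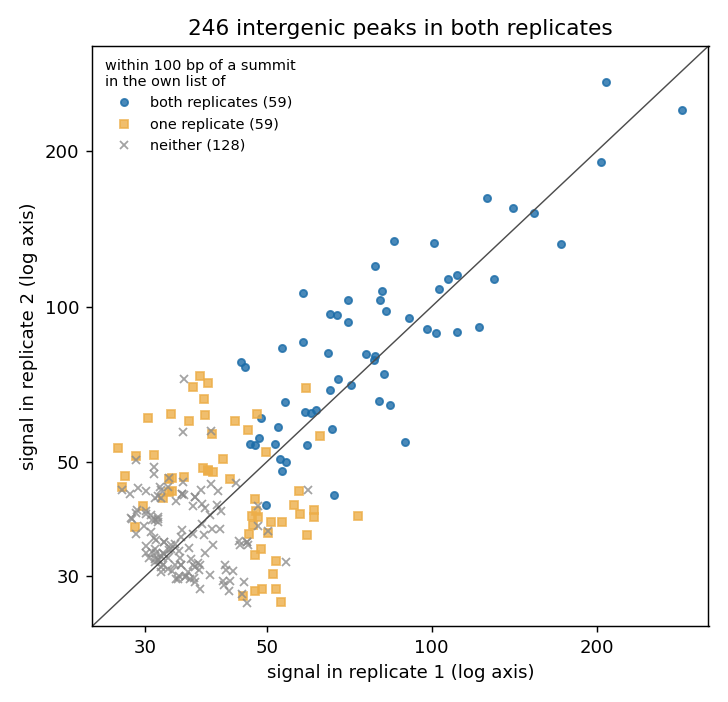
Signal of each of the 246 intergenic peaks in replicate 1 and replicate 2 (log axes; the line marks equal signal), by whether the own list of both (59), one (59) or neither (128) replicate has a summit within 100 bp. The peaks called by both lie at high signal near the line, and most called by neither lie at the low end.

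The 15 strongest intergenic peaks called in each replicate alone had mean signals of 100 to 263. The strongest lay at chr3R:16222392-16222591, 911 bp from the nearest TSS, that of lncRNA:CR45643. It was 3167 bp upstream of tara, a nuclear regulator of the cell cycle and cell fate, with 286 in replicate 1 and 240 in replicate 2. The next, at chr2R:13035241-13035422, lay 27434 bp beyond the 3′ end of the Polycomb group gene Su(z)2 and 9350 bp from the end of CG13323, with 208 and 272. A peak at chr3R:21520268-21520438, 569 bp upstream of sp3 and 7545 bp beyond C15, had 204 and 191. These 3 stood above the next peak in both replicates.

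A peak at chr3R:14053533-14053664, 3324 bp upstream of foxo, the forkhead transcription factor of insulin signalling, had 154 in replicate 1 and 152 in replicate 2. One at chr2R:22802894-22803045 lay in a 1340 bp gap between the 3′ ends of blw, an ATP synthase subunit gene, and CycB, the mitotic cyclin B gene, with 172 and 132. One at chr3L:17658523-17658667 lay 1244 bp beyond the end of Crtc, which encodes a coactivator of CREB, with 141 and 155. One at chr2L:9567446-9567576 lay 772 bp upstream of jp, the junctophilin gene, with 126 and 162. Both convergent and divergent gaps were thus found at high signal.

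The others follow in order of mean signal. A peak 241 bp beyond the 3′ end of CG4702, in the gap that starts at the immunoglobulin-domain gene dpr17, had 130 in replicate 1 and 113 in replicate 2. A peak 801 bp upstream of unc-5, a netrin receptor gene, and 287 bp beyond the nuclear receptor gene Hr51 had 101 and 133. A peak 1909 bp upstream of Atf3, a bZIP transcription factor gene, had 111 and 115. The remaining 5 are named by both flanking genes. They lay between RFeSP and chinmo (107 and 113), CG3149 and AdamTS-B (85.4 and 134), and CG9932 and Ttc30 (122 and 91.3). The last of them lay between Glut3 and abd-A (103 and 108) and between Atg13 and stck (111 and 89.4).

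**Figure D4:**
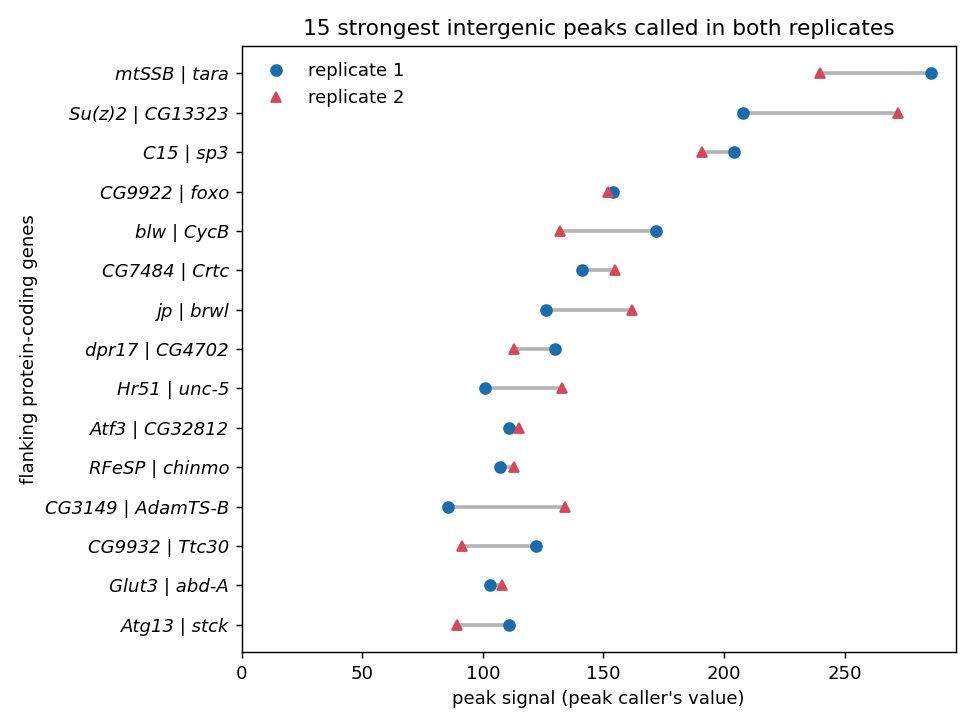
Peak signal in replicate 1 (circles) and replicate 2 (triangles) of the 15 strongest intergenic peaks called in each replicate alone, labelled by the protein-coding genes on each side. The peaks beside tara, Su(z)2 and sp3 lie at or above 191 in both replicates, and all others at or below 172.

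Some intergenic peaks lay in groups. Of the 5556 gaps between protein-coding genes with rule-meeting bases, 195 held a peak and 29 held 2 or more, 80 peaks in all. Another peak of the list lay within 1 kb for 40 intergenic peaks and within 5 kb for 99. The gaps described next were those with most peaks.

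The gap of 37097 bp between RFeSP, a gene for a subunit of mitochondrial complex III, and chinmo held 9. chinmo encodes a BTB zinc finger protein that sets the temporal identity of neurons. Its strongest peak lay 18436 bp upstream of chinmo with 107 in replicate 1 and 113 in replicate 2. Another, with 58.3 and 85.2, lay nearer to chinmo, and the one closest to it, 1530 bp from its start, had 39.0 and 71.2. Mean signals ran over 33.6 to 110, and 4 of the 9 were called in each replicate alone. Among them 2 neighbouring peaks drew on the same record of replicate 2 (72.3), so they are not independent there.

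**Figure D5:**
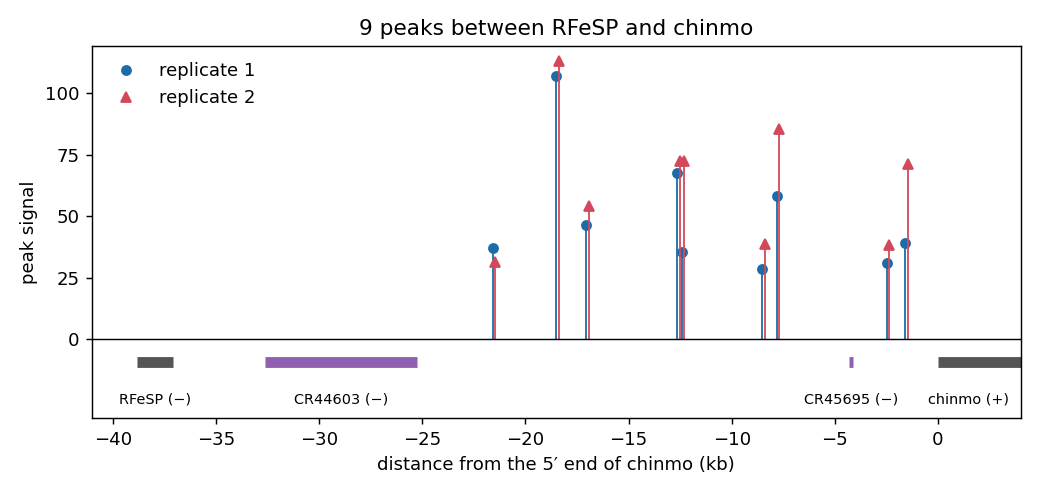
Signal of the 9 intergenic peaks between RFeSP and chinmo in replicate 1 (circles) and replicate 2 (triangles) against distance in kb from the 5′ end of chinmo; bars below are annotated genes, protein-coding in grey and noncoding in purple. All 9 lie in the part of the gap nearer to chinmo than the noncoding gene CR44603, and the tallest reaches 107 and 113.

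The 75047 bp gap between NijA and CG43245 on 3L held 7 peaks, all weak (33.7 to 40.4) and none called in each replicate alone. Of the 5 intergenic peaks farthest from a TSS, 3 were neighbours here, 33357, 33157 and 32938 bp from the TSS of CG43245, and each carried the same replicate 1 signal (46.0). The farthest peak of all was that on the Y, 82472 bp from a TSS (33.4 in replicate 1 and 62.0 in replicate 2), and the next lay 37697 bp from the TSS of bab2, a BTB transcription factor gene, but 850 bp from its 3′ end (34.8 and 31.6). Over all intergenic peaks, 10 shared a replicate 1 record and 11 a replicate 2 record with another peak.

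Upstream of tara, the 20400 bp gap held 4 peaks, of which the strongest had 263 ± 32.4 and the others 42.4 ± 6.65, 37.2 ± 13.7 and 35.7 ± 10.7. A further peak in that gap, with 116 in replicate 1 and 145 in replicate 2, met the IDR threshold in the ranked list but was absent from the conservative list. Upstream of foxo, the 20546 bp gap held 4 with 153 ± 1.71, 51.8 ± 8.02, 37.0 ± 8.97 and 35.4 ± 5.33. The gap beyond Su(z)2 held 3 with 240 ± 45.3, 43.1 ± 5.44 and 32.8 ± 0.574. In each of these 3 gaps a single peak of the conservative list exceeded its neighbours in that list by more than their replicate spread.

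In all, 377 of 13968 protein-coding genes (2.7%) flanked an intergenic peak. Only 7878 of the 13968 lay beside rule-meeting bases and could flank one. The shares of gene lists below are likewise of all annotated genes on a list. A promoter peak was also present at 70 of the 377 (18.6%), against 1583 of all protein-coding genes (11.3%). Genes with long gaps have more DNA in which a peak can lie, so peaks per Mb of rule-meeting gap are given beside the counts, against 6.31 per Mb over all gaps. The gene lists were drawn up with earlier results of these data known.

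Polycomb and trithorax group genes had most peaks for their gap length. Of 25 genes on the list 4 were flanked (16%): Psc and Su(z)2, neighbouring genes for related Polycomb group proteins, and ph-d and ph-p, the duplicated polyhomeotic genes. The rule-meeting gaps beside listed genes came to 0.0743 Mb and held 8 peaks, 108 per Mb, and all but 1 of the 8 lay around Psc and Su(z)2. Beside Psc, peaks had 48.0 ± 17, 44.7 ± 4.98, 43.1 ± 15.9 and 40.7 ± 0.824. The peak 731 bp upstream of ph-d had 49.8 in replicate 1 and 52.2 in replicate 2. Of the 8 only the strong one beyond Su(z)2 was called in each replicate alone. The list's rate thus rests on few loci.

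Lists of developmental regulators are given next. Hox genes, which set segment identity, were flanked in 3 of 8 cases (37.5%, 16.7 per Mb): abd-A by the peak with 105 ± 3.05 given above, 8330 bp from the gene, and Dfd and Scr by a peak between them with 35.3 ± 0.74. Segmentation and patterning factors were flanked in 5 of 24 cases (20.8%, 8.34 per Mb). A flanking gene was not always the nearest. The peak flanking Optix (78.4 ± 3.39) lay 16885 bp from it and 643 bp from CG14762. The peak flanking ems (54.9 ± 9.84) lay 10292 bp from it. The stronger peak flanking hb (34.6 ± 4.0) lay 12896 bp from it and 2188 bp from Cks85A. The duplicated forkhead pair slp1 and slp2 shared a peak between them (52.1 ± 3.12). Other identity factors were flanked in 12 of 70 cases (17.1%, 12.1 per Mb, 16 peaks of which 4 were called in each replicate alone). After tara the strongest lay 380 bp beyond the 3′ end of zfh1, a zinc finger and homeodomain gene, and 43 bp from that of the Hippo pathway kinase gene wts, with 65.3 in replicate 1 and 96.7 in replicate 2. The peak 3916 bp upstream of zfh2 had 56.5 ± 3.88.

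Signalling ligands and receptors were flanked in 7 of 37 cases (18.9%, 14.4 per Mb), by 6 peaks of which 0 were called in each replicate alone. The Hedgehog receptor gene ptc had 2 peaks, 5055 and 5257 bp upstream, both with 39.8 ± 4.08. These 2 overlap and have the same values (36.9 in replicate 1 and 42.7 in replicate 2), so they are not independent, though each is counted. Their merged signals were 11.8 and 77.4. A peak between wg and Wnt4, which encode Wnt ligands, had 27.2 in replicate 1 and 44.7 in replicate 2. A peak between upd1 and upd3, which encode ligands of the JAK/STAT pathway, had 28.9 and 39.8. Neuronal function genes were flanked in 4 of 30 cases (13.3%, 25.2 per Mb), by peaks with 50.6 ± 14.6 (fne, an RNA-binding protein gene), 39.9 ± 9.54 (Rim, of the active zone), 39.3 ± 11.5 (the GABA receptor gene Rdl) and 37.9 ± 0.138 (the Slit receptor gene robo2). Of these 4, robo2 had the closest replicates. The peak flanking Rim lay nearer to cpo, 575 bp upstream of cpo and 2679 bp from Rim.

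Muscle genes were flanked in 1 of 21 cases (Zasp52, 40.8 ± 14.8, 18.8 per Mb). Cytoplasmic ribosomal protein genes were flanked in 3 of 85 cases (3.53%, 5.34 per Mb), by peaks of 36.9 ± 8.02 (RpL17), 36.8 ± 7.36 (RpS3) and 34.4 ± 2.83 (RpL13). Mitochondrial ribosomal protein genes were flanked in 0 of 73 cases and insulator and boundary protein genes in 0 of 13, with 0.321 and 0.00295 Mb of gap. Only 19 and 4 of these genes lay beside rule-meeting bases. Cuticle protein Cpr genes were flanked in 1 of 70 cases (Cpr76Ba, 95.2 ± 9.09, 4.56 per Mb). Chemosensory receptor genes were flanked in 5 of 179 cases (2.79%, 4.27 per Mb). Lists with few flanked genes give rates per Mb that a single peak would move, and no list was tested.

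Intergenic candidates seldom reached the conservative list. Among the 135475 peaks ranked over both replicates on the arms, 26491 (19.6%) met the intergenic rule, and 246 of them (0.929%) were kept. The share kept was 1.4% at introns, 0.559% at exons, 6.13% at promoters and 1.86% over all ranked peaks. Ranked intergenic peaks had median signals of 11.5 in replicate 1 and 11.9 in replicate 2, and a Spearman's rank correlation of 0.29 between the replicates.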

How the data were processed

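Peak lists from 2 biological replicates of one group were used as the authors deposited them, with summits, on dm6 per the labels. The deposited signal came from the peak caller, and its scale, the aligner, the caller and the treatment of the control are not given in the sources used here. The deposited −log10 of the IDR served as a filter (an IDR of at most 0.01; 0.001 as an alternative). Signals in each replicate were read from the list ranked over both replicates. Which replicate each value belongs to was found from identical records in the replicates' own lists (106023 and 106751 of 135475 peaks on the arms, with 0 matches to the other replicate). For 5 intergenic peaks (replicate 1) and 2 (replicate 2) the record was not found there and the column's value was used. Read depth is unknown.

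Gene models came from Ensembl release 115 without 5889 transposable elements (18277 genes and 24111 TSSs), and sequence from RefSeq release 6 (dm6). The background was every base of the arms that met the same rule, and for motifs every 101 bp window of such bases. Only the windows left out bases of unknown letter. Windows on arm 2R are not shown. Distances and overlaps were checked against brute force at 400 random positions, with 400 equal for each. Python 3.11.15, numpy 2.4.6, pandas 2.3.3 and scipy 1.17.1 were used. Peaks named were the 15 strongest called within 100 bp in each replicate alone, the 5 farthest from a TSS, 3 on either side of the 500 bp threshold, up to 4 of each gene list, the 3 largest replicate ratios each way and groups within 5 kb. The gaps described in full, the CTCF-like letters and their windows were chosen after the values were seen. The members and lists were chosen with earlier results of these data known. Alternatives were other TSS distances, protein-coding models only, the list from pooled reads, a stricter IDR, each replicate alone and other summit distances. The alternative without shared records was chosen after seeing the data.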

Additional observations from a re-analysis of the deposited data

Results flagged for a closer look

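The list ranked over both replicates held 10 intergenic peaks that met the IDR of 0.01 and were absent from the conservative list, a signal in data that the counts above do not use. The strongest, at chr3R:16224417-16224564, had 116 in replicate 1 and 145 in replicate 2 and lay 894 bp from the TSS of lncRNA:CR45643, in the gap upstream of tara. The next, at chr3L:25133910-25134199, had 75.5 and 124 and lay 13306 bp from the TSS of UQCR-11. The third, at chr2L:12012300-12012396, had 78.9 and 87.3. Why they were left out is not given in the sources used here.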

How the results depend on the processing

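The number of intergenic peaks, their median signal, the share called in each replicate alone, their median distance and the rank correlation of the replicates were recomputed under other settings; the other values were not. Of these, 21 of 33 alternatives stayed within 1.5 times (counts) or the spread between replicates or interval of the value. With an IDR of at most 0.001, 67 intergenic peaks remained, with a median signal of 72.7, 86.6% called in each replicate alone and a median distance of 1909 bp; fewer, stronger peaks follow from the stricter filter. The median distance was 1612 bp with a TSS distance of 250 bp, 3312 bp with 1000 bp and 3546 bp with protein-coding gene models only, where the rule itself moves the bound or drops TSSs. The median signal was 41.4 with a TSS distance of 250 bp. The own list of a single replicate held 95 to 104 intergenic peaks with a median distance of 1753 to 2130 bp, and the median signal in a single replicate was 39.5 to 41.3. Over all ranked intergenic peaks the rank correlation between the replicates was 0.29. Without members that share a replicate record, 234 peaks remained, and each value stayed within those limits. The list from pooled reads gave 251, of which 248 could be joined to replicate signals. No paired analysis was possible because there is a single group. Unknown read depth limits how weak a peak could be found, and 2 replicates limit every SD.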

Other observations

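In 6 intergenic peaks the signal of the merged peak was below that of both replicates. In the group between NijA and CG43245, for example, a merged signal of 8.17 stood beside 35.0 in replicate 1 and 43.4 in replicate 2. Among the other peaks with CTCF-like letters, 1 flanked the transcription factor gene Optix (78.4 ± 3.39). It lay 16885 bp from Optix and 643 bp from CG14762. Further peaks lay between Sox21a and Sox21b (46.2 ± 6.43) and between Sox21b and D (31.4 ± 1.04), all genes for transcription factors. These peaks were chosen after their values were seen.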
